A study of Lemna gibba with 6 samples.

Results

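Fronds of *Lemna gibba*, a small floating duckweed, were grown on inorganic nitrogen (INS) or on glutamine (ONS), and 29 of the 16340 genes in the table had transcript levels at least 16 times lower under ONS. The ONS-low genes, as they are called here, were taken by 3 conditions. The mean normalized count over all libraries was at least 20, the INS mean was at least 16 times the ONS mean, and the gene was neither assigned to a reaction of the metabolic network of the study nor a nitrate or nitrite reductase gene. They made up 0.177% of the table. The condition means that chose them are given below as a description and are not tested again.

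In plants, nitrate is taken up, reduced to nitrite by nitrate reductase and to ammonium by nitrite reductase, and ammonium is then joined to glutamate to form glutamine. Nitrate also acts as a signal, and in other plants many genes respond to its supply, among them genes for nitrate uptake and reduction. Glutamine is the first organic product of this route, so fronds supplied with it receive nitrogen that has already been reduced. The tables at hand pair none of the IDs of the ONS-low genes with a name or a protein, the study's own annotation of its transcripts was not used here, and the genes are therefore described by ID, level and pattern, with no role given.

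The INS medium held 12.4 mM nitrate and 1.3 mM ammonium, given as potassium nitrate and ammonium phosphate. In the ONS medium potassium chloride and potassium phosphate at equal concentrations took the place of these salts, and 6.85 mM glutamine supplied the nitrogen. The media thus differed in chloride as well as in nitrogen source. Both media held 5 g/L glucose, and all fronds were of the clone G3 (7742a), grown axenically in continuous light, so that the comparison covers 1 clone on a sugar-containing medium. PolyA RNA of whole fronds was sequenced in 3 libraries per condition, which are labelled as replicates and which the study describes as biological replicates. Roots were not separated from the green tissue. The study reports a significantly larger root share of dry weight under ONS than under INS, and its growth cultures ran longer under INS. In RNA from whole fronds, fewer cells of a type and less RNA per cell cannot be told apart. As a check that green tissue was present, the genes listed for ribulose-bisphosphate carboxylase, its CO2-fixing enzyme, were examined. Of these 16 genes, 15 had reads, and together they took 1.63% of all normalized counts under INS and 2.12% under ONS. These counts do not measure the root share.

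Reads per library were recovered from the condition means for 11325 genes, among them 25 of the 29 ONS-low genes. The libraries can be ordered by depth within a condition but not tied to a replicate number. Depth was estimated as the size factor times the summed condition mean. It is thus a rescaled size factor and not a count of sequenced reads. The estimates were 25856532, 22971829 and 8324792 reads for the deepest, the middle and the shallowest INS library. For the ONS libraries they were 35807286, 15936157 and 14443663 reads. One read thus counts for more in the shallowest INS library, whose size factor was 0.4464, than in the deepest ONS library, whose size factor was 1.9634. Values per library are given below as normalized counts, which are reads divided by the size factor, always in the order deepest, middle and shallowest. Normalized counts are not divided by gene length, so the level of one gene is not compared with that of another as an amount of transcript.

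The name "nearly silent on glutamine" fitted most of the ONS-low genes but not every one. The ONS mean ranged from 0.551 to 921 normalized counts with a median of 7.33, against a median of 286 over all genes of the table. It was under 10 for 17 of the 29 genes and under 3 for 10 of them, while 7.29% of all genes in the table had an ONS mean under 10. One gene, LEMGIv51_A5_021177_1, stood above the table's median under ONS. Under INS the means ran from 40.6 to 14813.9 with a median of 170, and 10 of the 29 genes lay above the table's median of 291. The group therefore held 4 genes with an INS mean of at least 1000, 15 genes between 100 and 1000, and 10 genes under 100.

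**Figure D1:**
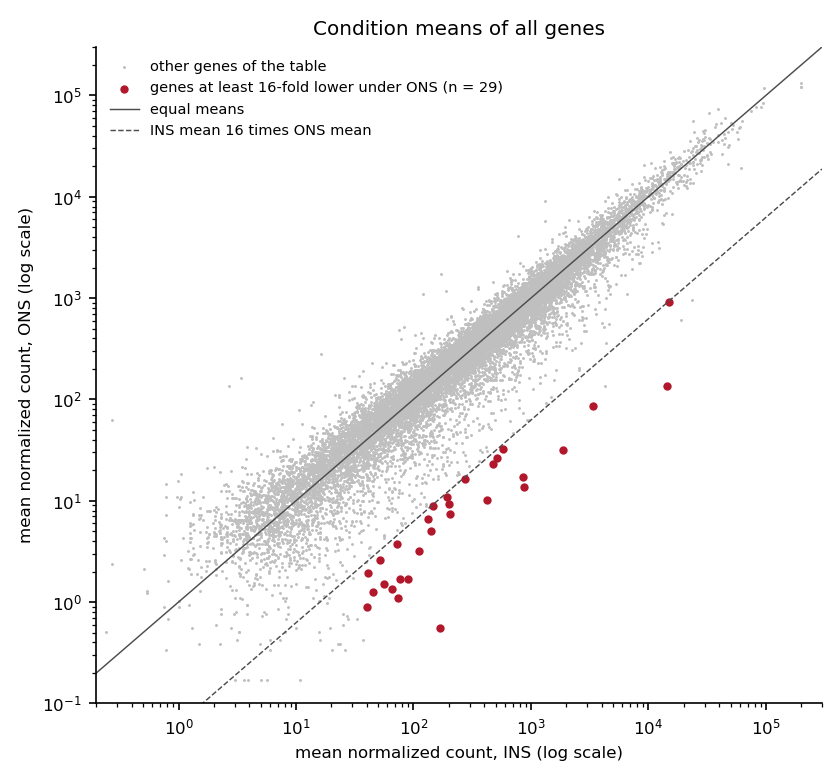
INS mean (horizontal axis) against ONS mean (vertical axis) of the genes of the table in normalized counts on log axes, with the 29 ONS-low genes in red, a solid line of equal means and a dashed line where the INS mean is 16 times the ONS mean. The red points lie below the dashed line from an INS mean of 40.6 to one of 14813.9, and the 3 grey points below it at the highest INS means are the excluded genes named in the text.

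The ratio of the INS mean to the ONS mean ranged from 16.1 to 308, with a median of 34.9, where the median over all tested genes was 0.968. It was 16 to under 20 for 8 genes, 20 to under 32 for 6, 32 to under 64 for 12 and at least 64 for 3. Before the exclusions, 32 of 14335 genes with a mean of at least 20 (0.223%) reached a ratio of 16. The remaining 3 were nitrate reductase (LEMGIv51_A5_009812_1, ratio 31.0), nitrite reductase (LEMGIv51_A5_006998_1, ratio 24.8) and a phosphogluconate dehydrogenase (LEMGIv51_A5_005055_1, ratio 32.1), the last an enzyme of the oxidative pentose phosphate pathway. The opposite pattern, an ONS mean at least 16 times the INS mean, was found for 4 genes of the 14335.

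The threshold did not fall at a gap in the ratios. Just inside it were LEMGIv51_A5_022143_1 with a ratio of 17.0, LEMGIv51_A5_020934_1 with 16.4 and LEMGIv51_A5_021177_1 with 16.1. Just outside were LEMGIv51_A5_020813_1 with 15.8 (INS mean 242, ONS mean 15.2), LEMGIv51_A5_021100_1 with 15.6 (39.0 and 2.50) and LEMGIv51_A5_013249_1 with 15.3 (956 and 62.5). With the same genes excluded, a further 258 genes with a mean of at least 20 had ratios from 4 to under 16. A ratio of 16 with a mean under 20 was reached by 34 genes.

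The 4 genes with the highest INS means held most of the group's normalized counts. LEMGIv51_A5_021177_1 had an INS mean of 14813.9 and LEMGIv51_A5_021715_1 one of 14465.6, which ranked 164 and 172 among all genes of the table. Under ONS their means were 921 and 135, and they ranked 3825 and 10497. Their ratios of 16.1 and 107 were thus far apart, although both ranked near each other under INS. Together they made up 72.4% of the summed INS mean of the 29 genes and 76.5% of the summed ONS mean. All 29 genes took 0.217% of the normalized counts under INS and 0.00758% under ONS.

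INS reads per library could not be recovered for these 4 genes because their INS means are over 1000, so no INS spread is given for them. Under ONS, LEMGIv51_A5_021715_1 had 85.6, 177 and 143 normalized counts (135 ± 46.4, SD, n = 3). LEMGIv51_A5_016827_1, with an INS mean of 3397, had 78.9, 84.7 and 93.4 under ONS (85.7 ± 7.30, SD, n = 3) and a ratio of 39.6. LEMGIv51_A5_000511_1, with an INS mean of 1870, had 12.7, 42.3 and 39.1 (31.4 ± 16.3, SD, n = 3) and a ratio of 59.5. The ONS libraries thus lay close together for LEMGIv51_A5_016827_1, while the deepest ONS library was the lowest of the 3 for LEMGIv51_A5_000511_1 and for LEMGIv51_A5_021715_1. For LEMGIv51_A5_021177_1 the ONS reads had more than one solution and no value per library is given.

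Among the genes with recovered reads, all 3 INS libraries lay above all 3 ONS libraries in 25 of 25. Of the 10234 genes tested, 14.2% had INS libraries that all lay above the ONS libraries. limma called all 25 lower under ONS (adjusted p of at most 0.05 and more than 4-fold on log2(normalized count + 1)), where it called 2.45% of the tested genes lower and 2.76% in either direction. Since the ONS-low genes were chosen on this contrast, both counts describe the choice and nothing is read from them. The lowest INS library was 3.55 to 50.9 times the highest ONS library, with a median of 13.9.

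The highest of these genes formed a pair with consecutive numbers. LEMGIv51_A5_009466_1 had 1152, 829 and 638 normalized counts under INS (873 ± 260, SD, n = 3) and 21.4, 5.72 and 13.9 under ONS (13.7 ± 7.84, SD, n = 3). LEMGIv51_A5_009465_1 had 1151, 822 and 614 under INS (862 ± 271, SD, n = 3) and 18.8, 9.16 and 24.0 under ONS (17.3 ± 7.53, SD, n = 3). In each INS library the pair differed by little, with 1598 and 1596 reads in the deepest, 1021 and 1013 in the middle and 285 and 274 in the shallowest. Under ONS their order was not the same in every library, with 42 and 37, 5 and 8, and 11 and 19 reads. The ratios were 63.9 and 49.8. Near-identical copies that share reads and neighbouring genes with equal levels cannot be told apart with this table, and the pair may not be independent measurements.

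Other genes with INS means of 400 to 600 differed in how steady the INS libraries were. LEMGIv51_A5_008256_1 had 518, 608 and 605 under INS (577 ± 51.2, SD, n = 3) and 35.7, 35.5 and 25.3 under ONS (32.1 ± 5.95, SD, n = 3). LEMGIv51_A5_009605_1 had 717, 507 and 305 under INS (509 ± 206, SD, n = 3) and 27.0, 26.3 and 25.3 under ONS (26.2 ± 0.878, SD, n = 3). The ONS level of LEMGIv51_A5_009605_1 was thus almost the same in every library, while its highest INS library was 2.35 times its lowest. LEMGIv51_A5_000082_1 had 877, 417 and 132 under INS (475 ± 376, SD, n = 3) and 37.2, 21.7 and 10.1 under ONS (23.0 ± 13.6, SD, n = 3). LEMGIv51_A5_011559_1 had 632, 356 and 269 under INS (419 ± 190, SD, n = 3) and 9.17, 4.58 and 16.4 under ONS (10.1 ± 5.97, SD, n = 3). For LEMGIv51_A5_000082_1 the shallowest INS library was 3.55 times the deepest ONS library, the narrowest gap in the group, although the condition means differed 20.7-fold.

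**Figure D2:**
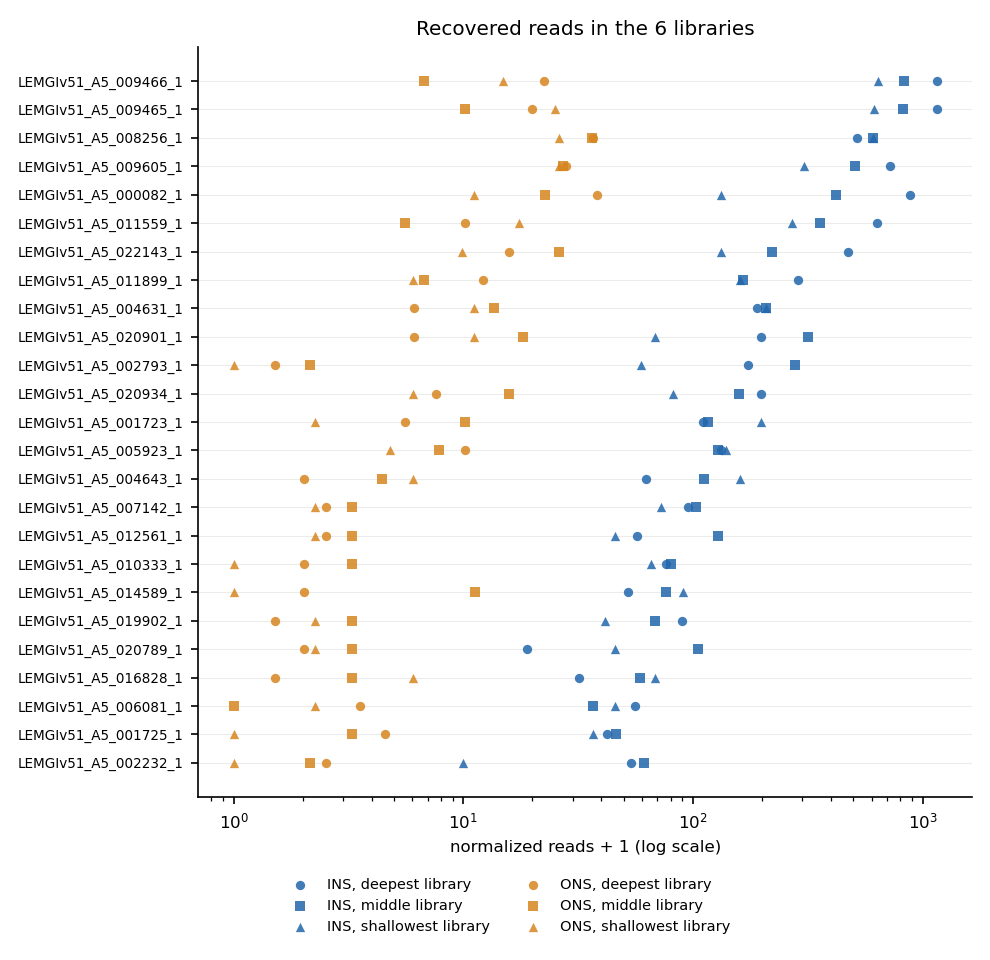
Normalized reads + 1 on a log axis of the 25 ONS-low genes with recovered reads, 1 row per gene and 1 point per library, with INS in blue, ONS in orange and the marker showing the depth order. In every gene the 3 INS points lie above the 3 ONS points, and the lowest INS library of LEMGIv51_A5_000082_1 is 3.55 times its highest ONS library.

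Several of the largest ratios came from genes with very few ONS reads. LEMGIv51_A5_002793_1 had 173, 278 and 58.2 normalized counts under INS (170 ± 110, SD, n = 3) and 0.509, 1.14 and 0 under ONS (0.551 ± 0.573, SD, n = 3). These are 240, 342 and 26 reads under INS against 1, 1 and 0 under ONS, and the group's highest ratio, 308, rests on those 2 ONS reads. With the 608 INS reads pooled against the 2 ONS reads and scaled by depth, the ratio was 360, with an exact (Clopper-Pearson) 95% interval of 99.2 to 2979 that covers counting error only. The size of this ratio is therefore known only within a wide range, and the reads behind the interval are those that chose the gene.

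The same limit held for other low genes. LEMGIv51_A5_010333_1 had 75.7, 79.6 and 65.0 under INS (73.4 ± 7.57, SD, n = 3) and 1.02, 2.29 and 0 under ONS (1.10 ± 1.15, SD, n = 3), with a ratio of 66.6. LEMGIv51_A5_007142_1 had 94.5, 102 and 71.7 under INS (89.5 ± 15.9, SD, n = 3) and 1.53, 2.29 and 1.26 under ONS (1.69 ± 0.533, SD, n = 3), with a ratio of 52.8. Both genes had INS libraries within 1.5-fold of each other and at most 3 reads in any ONS library. LEMGIv51_A5_019902_1 had 88.7, 67.4 and 40.3 under INS (65.5 ± 24.2, SD, n = 3) and 0.509, 2.29 and 1.26 under ONS (1.35 ± 0.893, SD, n = 3). LEMGIv51_A5_012561_1 had 56.3, 128 and 44.8 under INS (76.4 ± 45.2, SD, n = 3) and the same ONS reads as LEMGIv51_A5_007142_1, which are 3, 2 and 1. Their ratios were 48.4 and 45.1, and in LEMGIv51_A5_012561_1 the middle INS library stood at more than 2 times the others.

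Some reads were still assigned to each of the ONS-low genes under ONS. Whether they came from the gene itself or were shared with a similar gene was not tested. No gene had 0 reads in more than 1 ONS library, and 6 of the 25 had 0 reads in exactly 1. The library without reads was the shallowest ONS library for 5 genes, the middle one for 1 and the deepest for 0. Reads summed over the ONS libraries ran from 2 to 121 with a median of 18, against 129 to 2904 with a median of 402 over the INS libraries. At most 10 ONS reads were behind 11 of the 25 genes and at most 6 behind 8, so an ONS level of 0 in 1 library is not a sign of absence at this depth.

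Within INS, the ONS-low genes varied more between libraries than the typical gene did. The median SD of log2(normalized count + 1) over the INS libraries was 0.57 for the 25 genes, 0.48 for the 207 genes that were 4 to 16 fold lower, and 0.36 for all tested genes. Among the 8197 tested genes with an INS mean of at least 40, a floor that all ONS-low genes pass, it was 0.33. The 8197 genes were not matched to the ONS-low genes in level. The highest INS library was 1.09 to 6.70 times the lowest, with a median of 2.17 for the ONS-low genes, 1.90 for the genes 4 to 16 fold lower and 1.62 for all tested genes. It was at least 2 times the lowest in 13 of the 25 genes and under 1.5 times in 6. These are descriptions of 3 libraries, the INS mean was part of the choice, and the differences between the medians were not tested.

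The widest INS spread was that of LEMGIv51_A5_002232_1, with 52.6, 60.1 and 8.96 normalized counts under INS (40.6 ± 27.6, SD, n = 3) and 1.53, 1.14 and 0 under ONS (0.891 ± 0.795, SD, n = 3). Its shallowest INS library held 4 reads, and its SD on the log2 scale was 1.46. LEMGIv51_A5_000082_1, described above, followed with an SD of 1.37, again with the lowest value in the shallowest library. LEMGIv51_A5_020789_1 came next with an SD of 1.23 and 18.0, 104 and 44.8 under INS (55.6 ± 43.9, SD, n = 3) against 1.02, 2.29 and 1.26 under ONS (1.52 ± 0.674, SD, n = 3). Here the deepest INS library was the lowest, so the wide spreads did not all come from the same library.

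Others were almost constant on inorganic nitrogen. LEMGIv51_A5_005923_1 had 132, 127 and 139 normalized counts under INS (133 ± 5.76, SD, n = 3) and 9.17, 6.87 and 3.79 under ONS (6.61 ± 2.70, SD, n = 3). LEMGIv51_A5_004631_1 had 188, 208 and 206 under INS (201 ± 10.8, SD, n = 3) and 5.09, 12.6 and 10.1 under ONS (9.26 ± 3.82, SD, n = 3). With LEMGIv51_A5_008256_1 these were the 3 steadiest genes, with SDs of 0.06, 0.08 and 0.13 on the log2 scale. Their ratios of 20.1, 21.7 and 18.0 all lay in the lower part of the group's range.

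Which INS library was highest differed from gene to gene. The highest value stood in the deepest INS library for 10 of the 25 genes, in the middle one for 10 and in the shallowest for 5. Over all tested genes the shares were 38.1%, 30.7% and 31.2%, against 40%, 40% and 20% here, so the deepest library's share was near that of all genes. With median-of-ratios size factors the counts became 11, 7 and 7, and with scaling by total reads 10, 8 and 7. The lowest value stood in the shallowest INS library for 16 of the 25 genes (64%), in the deepest for 7 (28%) and in the middle for 2 (8%), where the shares over all tested genes were 34.6%, 42.6% and 22.8%. The count of 16 stayed under both scalings. All 6 possible orders occurred, most often deepest over middle over shallowest, in 9 genes, and middle over deepest over shallowest, in 7. The ONS-low genes therefore did not share 1 profile over the INS libraries.

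Leaving out each library in turn showed how far the ratios rest on a single library. Without the deepest INS library 21 of the 25 genes stayed at a ratio of at least 16, without the middle INS library 23, and without the shallowest INS library 25. Without the deepest ONS library 21 stayed, without the middle ONS library 25, and without the shallowest ONS library 21. All 25 stayed at or above 8-fold under each omission, the lowest ratio being 10.9, and 17 stayed at or above 16 under every one. The median ratio of these genes, 28.1 with all libraries, ran from 28.1 to 32.7.

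The genes that fell below 16 are named here because of that outcome, whether or not the naming rule holds them. Without the deepest INS library the ratios were 11.9 for LEMGIv51_A5_000082_1, 10.9 for LEMGIv51_A5_022143_1, 13.5 for LEMGIv51_A5_020934_1 and 15.5 for LEMGIv51_A5_009605_1. Without the middle INS library they were 12.2 for LEMGIv51_A5_020901_1 and 15.7 for LEMGIv51_A5_020934_1. With all libraries, LEMGIv51_A5_000082_1 had a ratio of 20.7 and the other 4 had ratios under 20. Without the deepest ONS library the ratios were 14.2 for LEMGIv51_A5_020901_1, 14.6 for LEMGIv51_A5_020934_1, 14.0 for LEMGIv51_A5_014589_1 and 14.2 for LEMGIv51_A5_016828_1. Without the shallowest ONS library they were 13.9 for LEMGIv51_A5_001725_1, 12.7 for LEMGIv51_A5_014589_1, 13.8 for LEMGIv51_A5_022143_1 and 13.5 for LEMGIv51_A5_020934_1. LEMGIv51_A5_020934_1, with 198, 158 and 80.6 under INS (146 ± 59.5, SD, n = 3) and 6.62, 14.9 and 5.05 under ONS (8.85 ± 5.28, SD, n = 3), fell below the threshold under 4 of the 6 omissions.

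In 14 of the 25 genes some omission moved the ratio by more than 1.5 times. Upward moves came from leaving out the ONS library with the most normalized counts. Without the middle ONS library the ratio became 666 for LEMGIv51_A5_002793_1, 144 for LEMGIv51_A5_010333_1, 142 for LEMGIv51_A5_014589_1, 73.9 for LEMGIv51_A5_019902_1, 48.1 for LEMGIv51_A5_001723_1 and 24.9 for LEMGIv51_A5_020934_1. Without the deepest ONS library it became 71.5 for LEMGIv51_A5_006081_1, 70.9 for LEMGIv51_A5_002232_1 and 35.7 for LEMGIv51_A5_001725_1, and without the shallowest it became 37.1 for LEMGIv51_A5_016828_1. Downward moves of more than 1.5 times were to 29.8 for LEMGIv51_A5_012561_1 and 20.6 for LEMGIv51_A5_020789_1 without the middle INS library, and to 11.9 for LEMGIv51_A5_000082_1 and 10.9 for LEMGIv51_A5_022143_1 without the deepest. Leaving out the shallowest ONS library, where they had 0 reads, lowered the ratio by 1.5 times in LEMGIv51_A5_002793_1 (to 205), LEMGIv51_A5_010333_1 (to 44.4), LEMGIv51_A5_002232_1 (to 30.4), LEMGIv51_A5_001725_1 (to 13.9) and LEMGIv51_A5_014589_1 (to 12.7). Genes named in these sentences were chosen by their moves. Outside the naming rule stand LEMGIv51_A5_006081_1, LEMGIv51_A5_001723_1, LEMGIv51_A5_001725_1 and LEMGIv51_A5_014589_1. LEMGIv51_A5_014589_1 moved the furthest, from 19.1 to 142, since 9 of its 11 ONS reads were in the middle library.

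**Figure D3:**
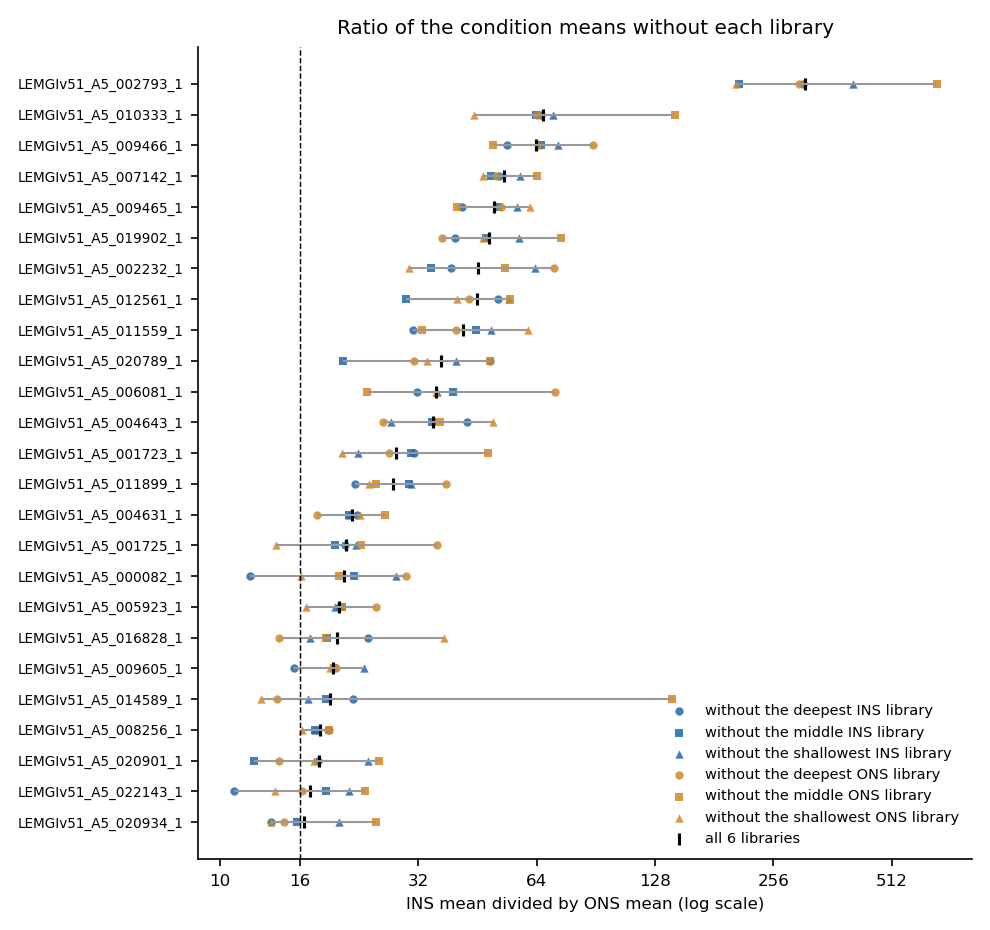
INS mean divided by ONS mean on a log axis, 1 row for each of the 25 genes, with all 6 libraries (black tick) and without each library in turn (markers, blue for INS and orange for ONS), and the threshold of 16 as a dashed line. The lowest ratio under any omission is 10.9, and 17 genes stay at or above 16 under every omission.

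The IDs carry numbers, and several ONS-low genes had numbers close to one another or to other genes that were low under ONS. Numbers are not coordinates, and whether consecutive numbers are neighbours on a chromosome was not tested. The ONS-low genes at consecutive numbers were LEMGIv51_A5_009465_1 with LEMGIv51_A5_009466_1, described above, and LEMGIv51_A5_016827_1 with LEMGIv51_A5_016828_1. LEMGIv51_A5_016828_1 had 31.0, 57.6 and 67.2 normalized counts under INS (51.9 ± 18.8, SD, n = 3) and 0.509, 2.29 and 5.05 under ONS (2.62 ± 2.29, SD, n = 3). Its INS mean was far below the 3397 of LEMGIv51_A5_016827_1, so that this pair, unlike the first, did not have equal counts. LEMGIv51_A5_001723_1 and LEMGIv51_A5_001725_1, whose numbers differ by 2, brought the genes with another ONS-low gene within 5 numbers to 6.

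Of the 32 other genes at numbers differing by 1 from an ONS-low gene and with a mean of at least 20, 8 had an INS mean at least 4 times the ONS mean. This is 25%, where 2.06% of all genes with a mean of at least 20 reached that ratio. The median ratio of the 32 genes was 1.35, against 0.973 over all genes with the same minimum mean. At least 2-fold was reached by 9 of the 32, where 6.89% of all genes with that mean reached it. Within 5 numbers, 13 of 168 such genes reached 4-fold (7.74%) and 27 reached 2-fold. In all, 11 of the 23 ONS-low genes with a row at a consecutive number had one at 4-fold or more, the other ONS-low genes included. Among the 258 genes that were 4 to 16 fold lower, 31 (12%) had another such gene at a consecutive number. A count of 8 genes of the 258 stood next to an ONS-low gene. The 31 were taken over all 258 genes and do not count ONS-low neighbours. They are therefore not comparable with the 11 of 23. Genes that share reads with an ONS-low gene would show the same pattern, and shared reads and separate genes cannot be told apart here.

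The 8 neighbours are named because of their ratios. Those with ratios above 13 were LEMGIv51_A5_007141_1 (INS mean 701, ONS mean 46.8, ratio 15.0), LEMGIv51_A5_012562_1 (927 and 63.2, ratio 14.7), LEMGIv51_A5_009604_1 (129 and 8.81, ratio 14.6), LEMGIv51_A5_000083_1 (418 and 30.6, ratio 13.7) and LEMGIv51_A5_022144_1 (295 and 22.3, ratio 13.3). The others were LEMGIv51_A5_010334_1 with a ratio of 7.90, LEMGIv51_A5_008257_1 with 5.36 and LEMGIv51_A5_007143_1 with 4.16. The number of LEMGIv51_A5_007142_1 thus stood between 2 other genes that were lower under ONS. LEMGIv51_A5_022144_1 had 644, 319 and 72 reads under INS beside 658, 272 and 59 of LEMGIv51_A5_022143_1, and 47, 33 and 4 under ONS beside 29, 22 and 7, so the pair had like counts and the same order of INS libraries.

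With the recovered size factors, most of these pairs had the same highest INS library, which the ratio of the means did not fix. Reads in all libraries were recovered for 7 of the pairs of an ONS-low gene and a neighbour at 4-fold or more. In 7 of 7 the highest INS library was the same for both genes, and in 5 of 7 the whole order was the same. Of the 16 pairs with a neighbour under 4-fold, 8 had the same highest INS library and 4 the same order. The numbers of pairs are small, neighbours were taken by the outcome, and the difference was not tested. Nor were the pair counts repeated with the other scalings, under which the highest INS library changed for some ONS-low genes. Some of the agreement rests on near-ties. In LEMGIv51_A5_008256_1 the middle and the shallowest INS library were nearly equal (608 and 605), and in LEMGIv51_A5_010333_1 the deepest and the middle (75.7 and 79.6).

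**Figure D4:**
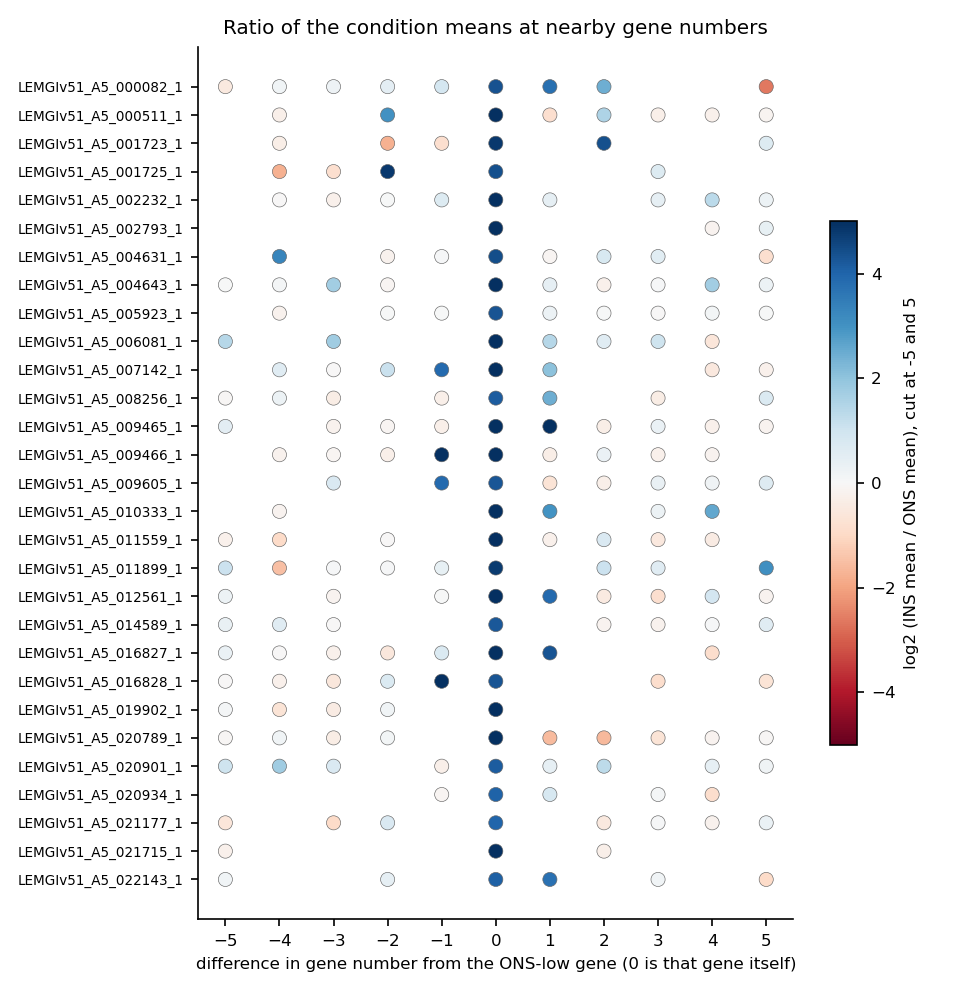
Log2 of the INS mean over the ONS mean as colour (blue is lower under ONS, red is higher, cut at -5 and 5) for each ONS-low gene (rows, at 0) and the genes whose numbers differ by up to 5 (horizontal axis), where a blank is a number with no gene drawn. At a difference of 1, 8 of the 32 other genes lie at or above 4-fold, and within 5 numbers 13 of 168 do.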

How the data were processed

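The authors mapped 101 bp paired reads of polyA RNA with Bowtie to the predicted transcripts of draft genome v0.5.1 and normalized reads per transcript with DESeq. The deposited signal is a mean of size-factor-normalized counts over all libraries and per condition. Versions are not given in the sources used here. Fold changes, p-values and calls of the authors' own comparison are also in the table and were not used.

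A condition mean averages the reads of 3 libraries after division by the size factors. Size factors and reads were recovered from means under 1000, and kept where a single solution met the 10 printed digits. This gave 11325 genes (69.3%). On simulated data, 5670 of 5917 means gave 1 solution each, in every case the true one. The simulated means were built and solved with the recovered size factors, so the recovery of the size factors itself was not tested. Conditions come from the sample titles.

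limma 3.58.1 (R 4.3.3) with a mean-variance trend was run on log2(normalized count + 1). It covered the 10234 of these genes whose mean was 10 or more, with Benjamini-Hochberg adjustment over them. It was also run on simulated reads that had the same variation beyond counting error in every gene. That simulation does not cover the wider spread of the ONS-low genes, and nothing is drawn from it. No count model was fitted, because many genes lack recovered reads. Other computations used Python 3.11.15, pandas 2.3.3 and scipy 1.17.1. The ONS-low genes, lists and tests were chosen with earlier results of these data known. Network genes left out were the 311 IDs that the study assigns to reactions.

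Genes are named where they have recovered reads and are among the 10 highest INS means or the 10 largest ratios, lack recovered INS reads, have the 3 smallest ratios or lie just outside, have consecutive numbers, or have the 3 widest or 3 narrowest INS spreads. None of the 25 genes with recovered reads had overlapping groups, and none of the 28 with ONS reads per library had 0 reads in all of them. Genes outside the rule are marked. Alternatives were other ratio and mean thresholds, added counts, pseudocounts, scalings and the omission of each library.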

Additional observations from a re-analysis of the deposited data

How the results depend on the processing

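The number of ONS-low genes depended on the thresholds. From 29, it became 100 with a minimum ratio of 8, 15 with a minimum ratio of 32, 42 with a minimum mean of 10, 19 with a minimum mean of 50, and 18 with 3 normalized counts added to both means. limma called 282 genes in either direction (2.76%), 25 of them ONS-low genes, and with a minimum mean of 50 it called 172 and 15, where 15 ONS-low genes were tested. Leaving out each library gave 224 to 307 called genes, 24 to 25 called ONS-low genes, 21 to 25 genes at a ratio of at least 16 and a median ratio of 28.1 to 32.7. The lost call was LEMGIv51_A5_002232_1 without the middle INS library (limma, adjusted p = 0.077), with a log2 change of -3.72. Median-of-ratios size factors and scaling by total recovered reads, the first computed anew, gave 25 and 24 genes at a ratio of at least 16, median ratios of 28.3 and 27.2, and 25 genes without overlap in both. Neighbours at 4-fold or more numbered 8 at consecutive numbers and 13 within 5 numbers. The wider window, and the counts of lowest INS libraries and of genes without overlap under other scalings, were chosen after seeing the data. The furthest moves of a ratio when 1 ONS library was left out had factors of 2.01 to 7.41. They took LEMGIv51_A5_006081_1 to 71.5, LEMGIv51_A5_002793_1 to 666, LEMGIv51_A5_010333_1 to 144 and LEMGIv51_A5_014589_1 to 142. No paired analysis was possible because the recovered libraries carry no replicate numbers.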
